A study of Mus musculus with 6 samples.

Results

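Amino acid transporter genes of 6 solute carrier families were examined in cultured mouse tumour cells. Members were all genes in the deposited count tables whose symbol begins with Slc1a, Slc6a, Slc7a, Slc36a, Slc38a or Slc43a and a number, without Slc7a11. This rule uses names only and found 61 of 24391 genes: 7 in Slc1, 20 in Slc6, 15 in Slc7, 5 in Slc36, 11 in Slc38 and 3 in Slc43. Not every match carries amino acids: Slc7a6os, Slc36a1os and Slc6a19os are genes named after a transporter neighbour, Slc43a3 is a nucleobase carrier, and Slc6 also holds carriers of monoamines and creatine.

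The libraries came from tumour cells of iBIP mice. All these mice carried Tyr-CreERT2 (a tamoxifen-activated Cre under the tyrosinase promoter, which is active in the melanocyte lineage), Rosa26-rtta, a doxycycline-inducible TetO-BRAFV600E transgene, and floxed alleles of the Ink4a/Arf locus (INK/ARF L/L) on a mixed FVB and B6 background. All received doxycycline, and 4-OHT at 1 uM was applied to the ears to start ear tumours. KMT2D KO denotes cells from iBIP mice that in addition carried floxed Kmt2d on both alleles (KMT2D L/L, 3 libraries), and KMT2D WT denotes cells from iBIP mice with wild-type Kmt2d (KMT2D+/+, 3 libraries). Age is not given in the sources used here. Library names in the file headers share 1 stem within each group, and nothing in the labels tells whether those 3 libraries were separate cultures or separate animals. The p-values thus cover the spread among the libraries at hand, possibly technical spread, and genotype cannot be told apart from tumour of origin.

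Solute carriers move amino acids across the plasma membrane or the membranes of lysosomes and vesicles, by coupling to sodium or proton gradients or by exchanging one amino acid for another. Sodium-coupled carriers of the Slc1 and Slc38 families load cells with glutamine and other small neutral amino acids, and exchangers of the Slc7 family, many of them paired with a heavy chain from the Slc3 family, trade these for leucine, arginine and other essential amino acids. Tumour cells often depend on them for growth, and several lysosomal members take part in the activation of the growth kinase mTORC1. Kmt2d, the gene altered here, encodes a methyltransferase that places methyl marks on histone H3 at enhancers. The comparison asks which of these carriers differed in RNA level between KMT2D KO and KMT2D WT cells.

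Total counts were 55594979 to 79718782 in KMT2D KO and 43168605 to 59360068 in KMT2D WT. The members took 0.225% to 0.229% of the counts in KMT2D KO and 0.190% to 0.199% in KMT2D WT. Whole-gene counts of Kmt2d were 74.0 ± 5.32 CPM (counts scaled to library size) in KMT2D KO and 89.3 ± 10.6 CPM in KMT2D WT (SD, n = 3 each), with overlapping libraries (log2 fold change -0.27, edgeR adjusted p = 0.0075, and 0.058 without KMT2D KO replicate 2), and counts over the whole gene cannot tell if its floxed exons were deleted. The melanocyte pigment genes Tyr, Tyrp1 and Dct, which define the labelled lineage, had group means of at most 0.0765 CPM, while the summed level of 8 fibroblast markers was 11998 to 12699 CPM in KMT2D KO and 2812 to 2877 CPM in KMT2D WT. Of these fibroblast markers 5 were called higher and 3 (Dpt, Thy1 and Lum) lower, and the largest part of the sum was the collagen gene Col3a1 (7659 CPM in KMT2D KO and 836 CPM in KMT2D WT). The extraction protocol names cerebellum. Of 12 markers of cerebellar neurons and astrocytes, 9 had under 1 CPM in every library, and their sum of 109 to 117 CPM in KMT2D KO and 3.84 to 5.51 CPM in KMT2D WT came mostly from Aldh1l1, a folate enzyme gene with 108 CPM in KMT2D KO and 2.99 CPM in KMT2D WT. The summed level of 6 immune markers was 3.16 to 3.76 CPM in KMT2D KO and 9.87 to 15.6 CPM in KMT2D WT. That of 6 keratinocyte markers was 16.2 to 17.6 CPM in KMT2D KO and 11.15 to 14.997 CPM in KMT2D WT, and that of 8 melanocyte markers was 50.3 to 58.9 CPM in KMT2D KO and 15.9 to 17.3 CPM in KMT2D WT. The melanocyte sum was mostly Mitf (53.2 CPM in KMT2D KO and 15.4 CPM in KMT2D WT), with 6 of the 8 markers under 1 CPM in every library, and among keratinocyte markers Trp63 was called higher (3.77) and Dsp lower (-2.55). The part of such cells in the results below was not tested. For the 4 tested genes of chromosome Y the median was -7.58 on the log2 scale, a difference that the genotype labels do not name.

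The tested members listed as carriers of glutamine and small neutral amino acids were higher in KMT2D KO. So were the arginine carriers Slc7a2 and Slc7a6 and the lysosomal carriers Slc36a1 and Slc38a7. The leucine carriers Slc7a5, Slc7a8 and Slc43a2 and the arginine carriers Slc7a1 and Slc7a7 were lower, while the scarce leucine carrier Slc43a1 was higher. In bulk RNA, fewer cells of a kind and less RNA per cell cannot be told apart. Genes were called where the quasi-likelihood test of edgeR, fitted over all 14579 genes that passed a filter on low counts, gave an adjusted p (Benjamini-Hochberg) under 0.05. Of the 61 members, 38 passed the filter, and of these 17 were called higher, 17 lower and 4 were not called. Among all tested genes 71.0% were called, 35.4% higher and 35.5% lower. With an absolute log2 fold change above 1 as a further condition, 8 members were called higher and 12 lower, where 26.8% of all tested genes passed. The libraries of the genotypes did not overlap in 34 tested members, against 74.3% of all tested genes. The median log2 fold change (KMT2D KO minus KMT2D WT) was 0.25 over tested members and 0.0040 over all tested genes, and its sign depended on which members passed the filter. It was -0.46 with DESeq2, -0.42 without a filter and -0.15 without KMT2D KO replicate 3, each of which tests more members. Over the same 38 members it was 0.25 with DESeq2, 0.28 without a filter and 0.065 without that replicate. Among the 20 members with at least 10 CPM in the higher group, 13 were called higher, 6 lower and 1 was not called.

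**Figure D1:**
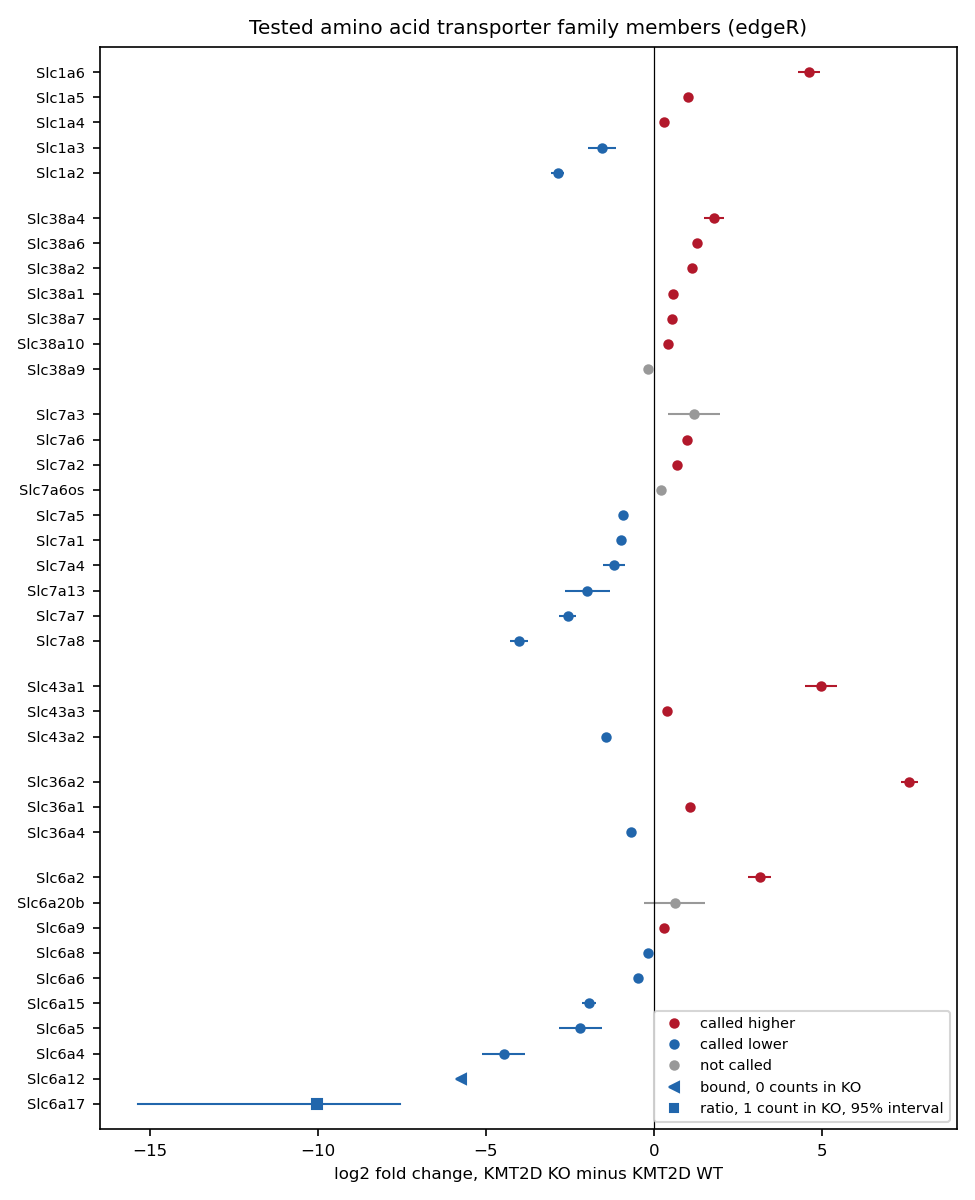
Log2 fold change (KMT2D KO minus KMT2D WT, x axis) of the 38 tested members, grouped by family and ordered within it. Points with bars are edgeR estimates with standard errors. Slc6a12 is drawn at its bound, and Slc6a17 at the ratio of its counts with a 95% interval. All called Slc38 members lie right of 0, and the farthest points are Slc36a2 on the right and Slc6a17 on the left.

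The remaining 23 members were at or near 0 in both genotypes, with at most 0.182 CPM as a group mean (Slc7a15 in KMT2D WT). They included most brain-type Slc6 carriers, such as the GABA transporters Slc6a11 and Slc6a13 and the dopamine transporter Slc6a3, and kidney or gut carriers such as Slc7a9, Slc6a18 and Slc6a19. Slc7a9 and Slc6a19os had no count in any library. Summed over a group, a floor of 3 counts is 0.0157 CPM in KMT2D KO and 0.0182 CPM in KMT2D WT, and such floors cover counting error only. Slc6a19, which carries neutral amino acids in gut and kidney, had 35 counts over the KMT2D KO libraries and 3 over the KMT2D WT libraries. Slc6a3 had 1 count over the KMT2D KO libraries and 22 over the KMT2D WT libraries.

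Levels of different genes were compared as RPKM, which is CPM divided by the exon length in kilobases. The summed level of all members was 515 ± 4.87 RPKM in KMT2D KO and 396 ± 8.60 RPKM in KMT2D WT (SD, n = 3 each). The 5 most abundant members held 62.8% of the sum in KMT2D KO and 62.3% in KMT2D WT. Slc38a2, which encodes the sodium-coupled glutamine and alanine carrier SNAT2, took 24.0% ± 0.07 of the sum in KMT2D KO and 14.3% ± 0.17 in KMT2D WT, and ranked 1 in KMT2D KO and 3 in KMT2D WT. The taurine carrier gene Slc6a6 took 9.11% ± 0.23 in KMT2D KO and 16.5% ± 0.81 in KMT2D WT. In KMT2D KO the order of levels was Slc38a2 (124 RPKM), Slc38a10 (96.8), Slc6a6 (47.0), Slc43a3 (30.9), Slc6a8 (25.4), Slc1a4 (24.6) and Slc36a2 (21.7), and of these neighbours only Slc6a8 and Slc1a4 had overlapping libraries. In KMT2D WT the order was Slc38a10 (72.6 RPKM), Slc6a6 (65.3), Slc38a2 (56.4), Slc6a8 (28.7), Slc43a3 (23.8), Slc7a5 (21.0) and Slc1a4 (19.8), with overlap between Slc38a10 and Slc6a6 and between Slc7a5 and Slc1a4.

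**Figure D2:**
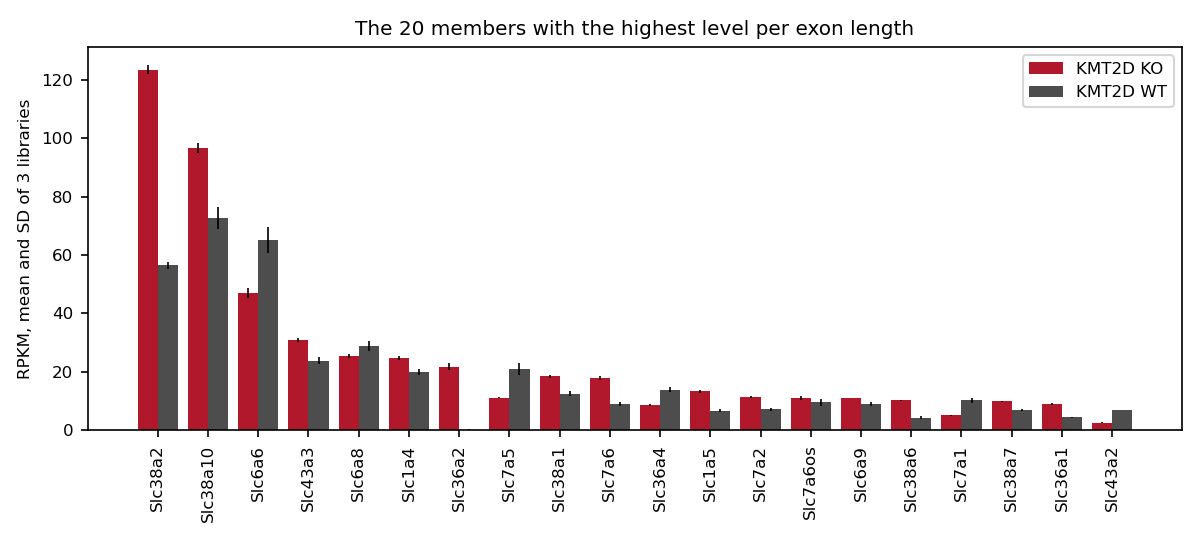
Level per exon length (RPKM, mean and SD of 3 libraries, y axis from 0) of the 20 most abundant members, with KMT2D KO left of KMT2D WT for each gene. Slc38a2 reaches 124 RPKM in KMT2D KO and 56.4 RPKM in KMT2D WT, and Slc36a2 has 21.7 RPKM in KMT2D KO and 0.102 RPKM in KMT2D WT.

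Of 7 members listed in the role of carriers of glutamine and small neutral amino acids, 5 passed the filter. These 5 were called higher, at log2 fold changes of 0.31 to 1.78, where 35.4% of all tested genes were called higher. Members outside this list that also carry neutral amino acids went in both directions, such as Slc38a7 (higher) and Slc6a17 (lower). Slc38a2 (mm9 chromosome 15, 96517823 to 96530129) had 567, 569 and 580 CPM in KMT2D KO, against 256, 267 and 261 CPM in KMT2D WT. Every KMT2D KO library lay above 2 times every KMT2D WT library, and the log2 fold change was 1.13 (SE 0.05, edgeR adjusted p = 2.0e-11). Its chromosomal neighbour Slc38a1 (96401849 to 96473344), which encodes the related carrier SNAT1, had 150, 155 and 159 CPM in KMT2D KO and 96.0, 108 and 109 CPM in KMT2D WT. The groups did not overlap (0.57, SE 0.06, adjusted p = 6.1e-07). Slc38a4, another carrier gene of the family on this chromosome, was far less abundant, at 1.97 ± 0.24 CPM in KMT2D KO and 0.572 ± 0.036 CPM in KMT2D WT (1.78, adjusted p = 6.3e-05). Slc1a5, the gene of the glutamine exchanger ASCT2 (chromosome 7, 17366695 to 17383623), had 34.9, 37.0 and 37.4 CPM in KMT2D KO, against 19.5, 18.3 and 16.8 CPM in KMT2D WT. It was higher in all KMT2D KO libraries (1.00, SE 0.08, adjusted p = 2.7e-08). Slc1a4, the gene of the alanine, serine and cysteine exchanger ASCT1 (chromosome 11, 20202183 to 20232716), had 94.0, 98.8 and 97.0 CPM in KMT2D KO and 73.4, 80.4 and 79.7 CPM in KMT2D WT. Its difference was the smallest of the 5 and still left no overlap (0.31, SE 0.06, adjusted p = 0.00018). The other members of this role, Slc38a3 and Slc38a5, had group means of at most 0.083 CPM.

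Promoter windows of 300 bases, 250 before to 50 after each annotated start, were available from RefSeq (GRCm38.p6) for 43 of the 61 members. The other members were not searched, among them Slc36a2, Slc38a1, Slc1a5, Slc7a5, Slc7a2 and Slc6a6. The windows were searched on both strands for 2 motifs that regulators of amino acid genes are known to bind. TGATGNAA, the core of the C/EBP-ATF response element bound by ATF4, was found in 2 of these 43 members (4.65%), Slc1a4 and Slc7a7, where 4.51% of all 27025 genes with a window held it. CACGTG, the E-box bound by MYC, MITF and TFEB factors, was found in 8 (18.6%), where 8.09% of all genes held it. No member held both motifs, and a match is a description of letters and not of a bound site. Of the 10 members with either motif, 5 were called higher, 1 was called lower and 4 were not tested. Over all 61 members 17 were called higher and 17 lower, and a link between motif and direction was not tested. The windows shown here and below are those of called members that hold a motif, with 1 window for each member. The Slc1a4 window (chr11:20332664-20332963, minus strand, GRCm38.p6) holds the response element on its other strand as TTGCATCA, in capitals.
Slc1a4: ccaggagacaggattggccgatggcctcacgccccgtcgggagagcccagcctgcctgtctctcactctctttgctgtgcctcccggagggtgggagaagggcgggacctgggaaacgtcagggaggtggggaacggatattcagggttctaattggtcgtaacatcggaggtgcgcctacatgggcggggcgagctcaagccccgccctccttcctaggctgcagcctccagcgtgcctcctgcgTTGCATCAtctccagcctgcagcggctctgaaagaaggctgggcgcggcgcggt

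Slc38a10, Slc38a6 and Slc38a7 of the same family rose as well. Of the 7 tested members of the family 6 were called higher, against 35.4% of all tested genes, and the median log2 fold change was 0.57. Slc38a10 (chromosome 11, 119965265 to 120012665) had 518, 519 and 535 CPM in KMT2D KO and 415, 389 and 376 CPM in KMT2D WT. The KMT2D KO libraries all lay above (0.41, SE 0.05, adjusted p = 4.5e-06). Slc38a6 (chromosome 12, 74387835 to 74455032) had 30.4, 29.9 and 29.9 CPM in KMT2D KO, against 11.7, 11.5 and 14.0 CPM in KMT2D WT. The KMT2D KO libraries were close to each other and all above KMT2D WT (1.28, SE 0.09, adjusted p = 6.8e-09). Slc38a8 and Slc38a11 were not tested.

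Lysosomal carriers link amino acid stores to mTORC1. Of the 3 named for this role 2 were called, both higher. This share of 66.7% stands against 71.0% of all tested genes called, 35.4% of them higher in KMT2D KO and 35.5% lower. Slc36a1, a proton-coupled carrier of glycine, alanine and proline that sits on lysosomes (chromosome 11, 55017842 to 55049832), had 47.9, 45.6 and 48.3 CPM in KMT2D KO and 21.5, 22.9 and 23.6 CPM in KMT2D WT. Each KMT2D KO library was above every KMT2D WT library (1.06, SE 0.07, adjusted p = 2.9e-09). Slc38a7, the lysosomal glutamine exporter gene, had 32.2 ± 0.473 CPM in KMT2D KO and 22.3 ± 1.01 CPM in KMT2D WT (0.53, adjusted p = 1.0e-05, and 0.32 with the chromosome 8 median of 0.21 subtracted). Slc38a9, which encodes the lysosomal arginine sensor that signals to Rag GTPases, had 7.58 ± 0.925 CPM in KMT2D KO and 8.51 ± 0.677 CPM in KMT2D WT, with overlapping libraries (-0.17, adjusted p = 0.24), and its value was 0.37 once the chromosome 13 median of -0.54 was subtracted. The Slc36a1 window (chr11:55204090-55204389, plus strand, GRCm38.p6) holds 2 E-boxes and the Slc38a7 window (chr8:95853442-95853741, minus strand) holds 1, in capitals.
Slc38a7: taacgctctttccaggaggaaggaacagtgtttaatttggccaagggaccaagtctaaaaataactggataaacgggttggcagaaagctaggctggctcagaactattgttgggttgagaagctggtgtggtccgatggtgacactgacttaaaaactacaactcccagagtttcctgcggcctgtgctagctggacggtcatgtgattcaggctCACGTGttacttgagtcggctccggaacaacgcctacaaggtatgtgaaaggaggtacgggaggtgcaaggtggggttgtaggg
Slc36a1: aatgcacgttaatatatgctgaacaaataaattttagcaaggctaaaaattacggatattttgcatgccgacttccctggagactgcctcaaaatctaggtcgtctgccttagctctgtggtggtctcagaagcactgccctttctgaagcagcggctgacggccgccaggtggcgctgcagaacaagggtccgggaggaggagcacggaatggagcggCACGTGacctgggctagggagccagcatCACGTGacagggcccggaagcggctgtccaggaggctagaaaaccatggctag

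The Slc36 family held the largest rise of all members. Slc36a2, a proton-coupled carrier gene for glycine and proline that lies beside Slc36a1 (chromosome 11, 54971970 to 54998579), had 50.4, 56.2 and 51.9 CPM in KMT2D KO, against 0.256, 0.484 and 0 CPM in KMT2D WT. It was nearly silent in KMT2D WT and ranked 7 among members by RPKM in KMT2D KO (log2 fold change 7.60, SE 0.26, adjusted p = 1.4e-12). The genes on either side of it were near 0 in both genotypes: Slc36a3 had 1 count over the KMT2D KO libraries and 8 over the KMT2D WT libraries, and Slc36a1os had 3 counts in each group. Slc36a4, which carries proline and tryptophan (chromosome 9, 15514213 to 15543233), fell, with 17.1, 17.0 and 15.7 CPM in KMT2D KO and 27.3, 24.8 and 28.5 CPM in KMT2D WT. Its groups did not overlap (-0.69, SE 0.08, adjusted p = 3.1e-06). Tested genes of chromosome 9 had a median of -0.30, and those of chromosome 11 a median of 0.074.

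**Figure D3:**
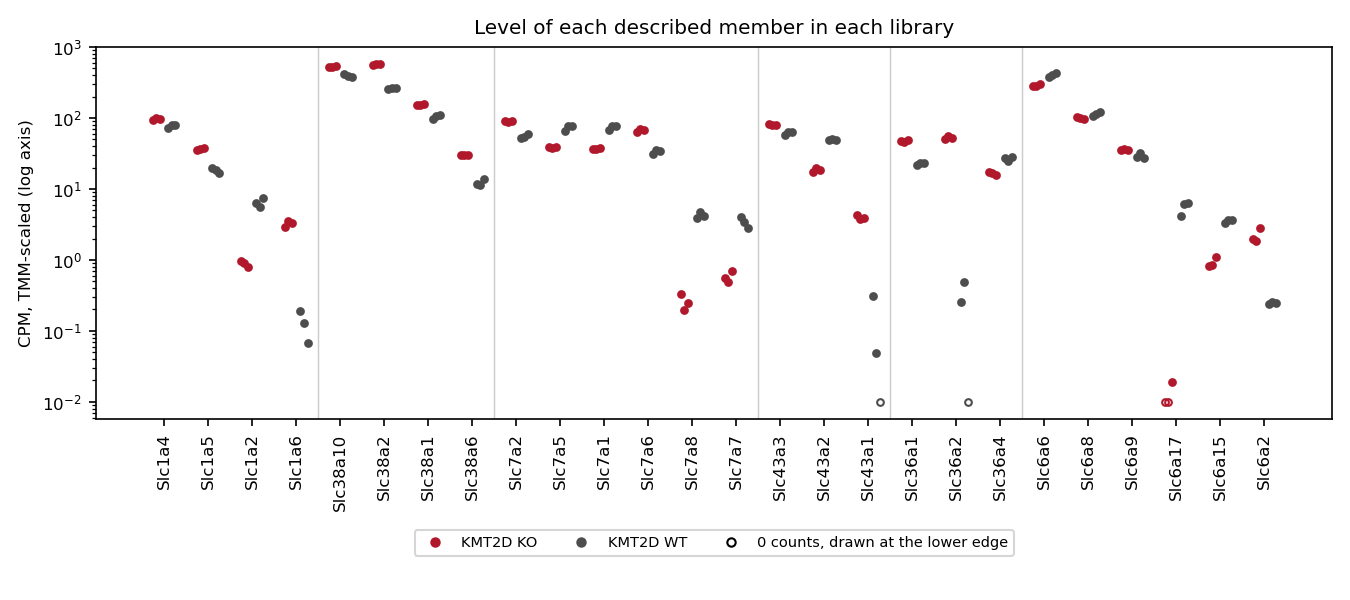
CPM in each library (log axis) of 25 members given by library, and of Slc7a5, with KMT2D KO left of KMT2D WT for each gene and grey lines between families. Open circles at the lower edge are libraries with 0 counts. Slc36a2, Slc43a1, Slc1a6 and Slc6a2 are under 0.5 CPM in every KMT2D WT library, and Slc6a17 is near 0 in every KMT2D KO library.

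System L carries large neutral amino acids and supplies leucine and other essential amino acids. Of its 4 members 3 were called lower and 1 higher, where 35.5% of all tested genes were called lower and 35.4% higher. Slc7a5, the gene of LAT1, is given here although the rule for named genes did not take it (chromosome 8, 124405046 to 124431586). It had 39.6, 38.3 and 38.8 CPM in KMT2D KO, against 65.8, 78.3 and 76.8 CPM in KMT2D WT. Every KMT2D KO library was lower (-0.92, SE 0.07, adjusted p = 2.0e-08). Slc43a2, the gene of the sodium-independent carrier LAT4 (chromosome 11, 75345196 to 75391074), had 17.3, 19.5 and 18.3 CPM in KMT2D KO and 49.4, 50.4 and 48.5 CPM in KMT2D WT. The libraries within each genotype were close and the groups far apart (-1.43, SE 0.07, adjusted p = 1.3e-10). Slc7a8, the gene of LAT2 (chromosome 14, 55341052 to 55400723), had 0.326, 0.195 and 0.244 CPM in KMT2D KO and 3.88, 4.68 and 4.11 CPM in KMT2D WT. It was scarce in KMT2D WT and close to 0 in KMT2D KO (-4.02, SE 0.26, adjusted p = 3.4e-09).

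The rising member of system L was Slc43a1, the gene of LAT3 (chromosome 2, 84679565 to 84703743), with 4.33, 3.82 and 3.85 CPM in KMT2D KO and 0.308, 0.0484 and 0 CPM in KMT2D WT. It stayed at a low level in KMT2D KO, under the level of Slc43a2 per exon length (1.37 RPKM against 2.54 RPKM), and its log2 fold change was 4.97 (SE 0.49, adjusted p = 3.3e-07). Slc43a3, the nucleobase carrier gene that follows it on the chromosome after a gap of 73060 bases (84776803 to 84798666), had 82.4, 78.6 and 80.5 CPM in KMT2D KO and 58.2, 63.7 and 63.5 CPM in KMT2D WT. It was higher in all KMT2D KO libraries (0.38, SE 0.06, adjusted p = 3.5e-05). The median of all tested genes of chromosome 2 was 0.27. The Slc43a1 window (chr2:84840073-84840372, plus strand, GRCm38.p6) holds 1 E-box, in capitals.
Slc43a1: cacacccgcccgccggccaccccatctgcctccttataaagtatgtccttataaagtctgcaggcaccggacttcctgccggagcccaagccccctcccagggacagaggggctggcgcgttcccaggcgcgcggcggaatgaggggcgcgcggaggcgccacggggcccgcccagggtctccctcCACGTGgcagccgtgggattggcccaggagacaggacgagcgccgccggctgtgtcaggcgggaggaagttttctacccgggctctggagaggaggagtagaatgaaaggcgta

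Carriers of arginine and lysine (systems y+ and y+L) moved in both directions, and 2 of 5 members were higher, 2 lower and 1 missed the threshold. The share called was 80.0%, against 71.0% of all tested genes. Slc7a1, the gene of the main arginine carrier CAT1 (chromosome 5, 149138986 to 149211480), had 36.5, 36.1 and 38.1 CPM in KMT2D KO, against 67.3, 76.2 and 76.1 CPM in KMT2D WT. All KMT2D KO libraries were lower (-0.99, SE 0.07, adjusted p = 3.9e-09), where tested genes of chromosome 5 had a median of -0.36. Slc7a2, the gene of CAT2 (chromosome 8, 41947721 to 42007424), had 91.0, 86.5 and 91.8 CPM in KMT2D KO and 53.2, 53.7 and 59.6 CPM in KMT2D WT. It was above KMT2D WT in each KMT2D KO library (0.70, SE 0.06, adjusted p = 1.0e-07). Per exon length Slc7a2 was at 11.4 RPKM and Slc7a1 at 5.10 RPKM in KMT2D KO, against 7.06 RPKM for Slc7a2 and 10.1 RPKM for Slc7a1 in KMT2D WT, so the order of the pair was reversed between genotypes. Slc7a3, the gene of CAT3, had 0.427 ± 0.235 CPM in KMT2D KO and 0.175 ± 0.196 CPM in KMT2D WT and was not called (1.19, adjusted p = 0.18), but was without KMT2D WT replicate 2 (2.47, adjusted p = 0.043, range over the alternatives 0.043 to 0.86).

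The y+L exchangers, which release arginine for glutamine and sodium, also moved in opposite directions. Slc7a6 (chromosome 8, 108692775 to 108722604) had 64.3, 69.1 and 67.2 CPM in KMT2D KO and 31.1, 35.9 and 34.1 CPM in KMT2D WT. The groups were far apart (0.99, SE 0.07, adjusted p = 5.5e-09). Slc7a6os, which lies 1734 bases from it on the other strand and encodes no transporter, had 16.8 ± 1.21 CPM in KMT2D KO and 14.5 ± 1.93 CPM in KMT2D WT, with overlap (0.21, adjusted p = 0.088), and was called without a low-count filter (0.24, adjusted p = 0.039) and without KMT2D WT replicate 1 (0.31, adjusted p = 0.022, range over the alternatives 0.022 to 1). Slc7a7 (chromosome 14, 54989126 to 55036539) had 0.560, 0.488 and 0.695 CPM in KMT2D KO, against 4.09, 3.39 and 2.84 CPM in KMT2D WT. It was lower in all KMT2D KO libraries (-2.57, SE 0.26, adjusted p = 3.8e-07). Exons of Slc7a7 share 684 bases with Oxa1l on the other strand, and strand was not used in counting, so its counts are uncertain. Of its 5 promoter windows, the 1 shown here (chr14:54417895-54418194, minus strand, GRCm38.p6) holds 2 ATF4-type response elements, in capitals. Another window (chr14:54417653-54417952), which overlaps it, holds the same TGATGCAA and is not shown.
Slc7a7: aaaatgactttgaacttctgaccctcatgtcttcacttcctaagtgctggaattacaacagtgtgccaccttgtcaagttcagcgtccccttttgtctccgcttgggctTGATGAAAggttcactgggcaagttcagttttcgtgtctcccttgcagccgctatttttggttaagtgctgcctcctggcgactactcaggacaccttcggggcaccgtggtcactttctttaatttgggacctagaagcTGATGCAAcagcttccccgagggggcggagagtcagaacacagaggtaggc

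Light chain exchangers of the Slc7 family need the heavy chain CD98, encoded by Slc3a2, to reach the cell surface. Slc3a2 (chromosome 19, 8781372 to 8797859) had 373, 385 and 388 CPM in KMT2D KO and 196, 216 and 215 CPM in KMT2D WT. All KMT2D KO libraries were higher (0.87, SE 0.05, adjusted p = 1.7e-09). Its summed light chains among the members (Slc7a5, Slc7a6, Slc7a7, Slc7a8 and Slc7a10) were at 29.3 ± 0.447 RPKM in KMT2D KO and 32.4 ± 2.46 RPKM in KMT2D WT, while Slc3a2 was at 129 ± 2.72 RPKM in KMT2D KO and 70.6 ± 3.83 RPKM in KMT2D WT (SD, n = 3 each). Within that sum, the ratio of Slc7a5 to Slc7a6 in RPKM was 0.619 ± 0.034 in KMT2D KO and 2.32 ± 0.072 in KMT2D WT. Slc7a11, the cystine exchanger gene and another light chain of Slc3a2 that is not a member, was at 13.7 ± 0.157 RPKM in KMT2D KO and 42.0 ± 2.52 RPKM in KMT2D WT. The other heavy chain gene, Slc3a1, had 0.221, 0.0976 and 0.0752 CPM in KMT2D KO and 0.137, 0.0807 and 0.179 CPM in KMT2D WT, and its light chain partner Slc7a9 had no count.

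**Figure D4:**
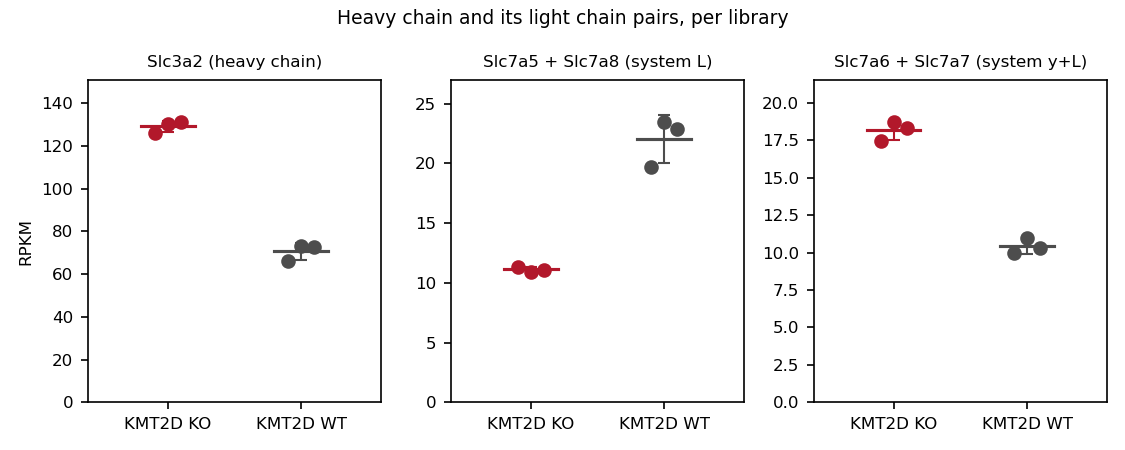
RPKM per library (points), mean (line) and SD (bars) of Slc3a2, of Slc7a5 plus Slc7a8 and of Slc7a6 plus Slc7a7, with KMT2D KO left of KMT2D WT and all y axes from 0. Slc3a2 is at 129 RPKM in KMT2D KO and 70.6 RPKM in KMT2D WT, the system L pair at 11.1 RPKM in KMT2D KO and 22.0 RPKM in KMT2D WT, and the y+L pair at 18.1 RPKM in KMT2D KO and 10.4 RPKM in KMT2D WT.

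The other Slc7 members were scarce. Slc7a4 had 0.583 ± 0.055 CPM in KMT2D KO and 1.33 ± 0.169 CPM in KMT2D WT (-1.18, adjusted p = 0.0050, and -0.73 with the chromosome 16 median of -0.44 subtracted). Slc7a13 had 0.0639 ± 0.031 CPM in KMT2D KO and 0.257 ± 0.034 CPM in KMT2D WT (-1.99, adjusted p = 0.016), and missed the threshold with DESeq2 (adjusted p = 0.058), without a low-count filter (adjusted p = 0.12), and without KMT2D KO replicate 1 (adjusted p = 0.076) or 2 (-1.67, adjusted p = 0.11), range over the alternatives 0.012 to 0.14. Over the family, 2 of 10 tested members were called higher and 6 lower, and the median was -0.95. Among all tested genes 35.4% were called higher and 35.5% lower.

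Glutamate and aspartate carriers, known from the clearance of transmitter in brain, were at low levels in both genotypes. Of 5 members 1 was called higher, 2 lower and 2 were not tested, where 35.4% of all tested genes were called higher and 35.5% lower. Slc1a6, the gene of the Purkinje cell carrier EAAT4 (chromosome 10, 78243241 to 78277570), had 2.94, 3.52 and 3.36 CPM in KMT2D KO and 0.188, 0.129 and 0.0671 CPM in KMT2D WT. KMT2D WT libraries were near 0 (4.61, SE 0.33, adjusted p = 1.1e-08). Slc1a2, the gene of the astrocyte carrier GLT-1 (chromosome 2, 102498840 to 102630941), had 0.951, 0.911 and 0.789 CPM in KMT2D KO, against 6.31, 5.55 and 7.55 CPM in KMT2D WT. All KMT2D KO libraries were lower (-2.86, SE 0.19, adjusted p = 4.2e-09). Slc1a3, the gene of the related glial carrier GLAST, had 0.398 ± 0.065 CPM in KMT2D KO and 1.19 ± 0.502 CPM in KMT2D WT (-1.56, adjusted p = 0.0038). Of astrocyte markers, Aldh1l1 was higher in KMT2D KO (108 CPM in KMT2D KO and 2.99 CPM in KMT2D WT), Gfap had 0.0950 CPM in KMT2D KO and 0.228 CPM in KMT2D WT, and Aqp4 had 0.0814 CPM in KMT2D KO and 0.0171 CPM in KMT2D WT. Their part in these results was not tested. The Slc1a6 window (chr10:78780246-78780545, plus strand, GRCm38.p6) holds 1 E-box, in capitals.
Slc1a6: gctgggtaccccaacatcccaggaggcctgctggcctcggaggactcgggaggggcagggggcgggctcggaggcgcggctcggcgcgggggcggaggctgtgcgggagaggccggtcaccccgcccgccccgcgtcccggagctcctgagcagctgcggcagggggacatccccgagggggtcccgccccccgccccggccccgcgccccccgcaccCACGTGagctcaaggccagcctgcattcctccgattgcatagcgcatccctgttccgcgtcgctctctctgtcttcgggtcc

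Most tested Slc6 members fell: of 20 members 10 were tested, 2 were called higher and 7 lower, and the median was -1.20. For comparison, 35.4% of all tested genes were called higher and 35.5% lower. Several of the fallers were scarce, and a filter at a mean of 1 CPM left 4 Slc6 members called lower. The abundant Slc6 members changed the least. Slc6a6, which takes up taurine (chromosome 6, 91634061 to 91709057), had 285, 283 and 301 CPM in KMT2D KO and 374, 404 and 429 CPM in KMT2D WT. The groups were apart (-0.47, SE 0.06, adjusted p = 3.3e-06), whereas tested genes of chromosome 6 had a median of 0.42. Slc6a8, which takes up creatine (chromosome X, 70918472 to 70927839), had 104, 100 and 98.4 CPM in KMT2D KO and 107, 115 and 121 CPM in KMT2D WT. The groups were close but did not overlap (-0.18, SE 0.06, adjusted p = 0.013), and the call was lost without KMT2D KO replicate 2 (-0.16, adjusted p = 0.077) or 3 (-0.15, adjusted p = 0.076), range over the alternatives 0.00045 to 1. Slc6a9, the gene of the glycine carrier GlyT1 (chromosome 4, 117507863 to 117541910), had 35.4, 36.03 and 35.8 CPM in KMT2D KO and 28.3, 32.0 and 27.5 CPM in KMT2D WT. It was higher in all KMT2D KO libraries (0.29, SE 0.07, adjusted p = 0.0031, and 0.15 with the chromosome 4 median of 0.13 subtracted), and 44 of its exonic bases overlap Ccdc24.

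Among scarce Slc6 members the changes were larger. Slc6a17, which loads neutral amino acids into synaptic vesicles (chromosome 3, 107270466 to 107320936), had 0, 0 and 0.0188 CPM in KMT2D KO, against 4.21, 6.07 and 6.28 CPM in KMT2D WT. With 1 count over the KMT2D KO libraries and 903 over the KMT2D WT libraries, the ratio of KMT2D WT to KMT2D KO was 1046 (exact 95% binomial interval 187 to 41374 for counting error only, edgeR adjusted p = 1.4e-10). Slc6a12, the betaine and GABA carrier gene, had 0 counts over the KMT2D KO libraries and 138 over the KMT2D WT libraries, and was at least 53.3-fold lower in KMT2D KO (adjusted p = 5.3e-06, floor of 3 counts over the group). Slc6a15, a carrier gene for proline and branched-chain amino acids (chromosome 10, 102830442 to 102882013), had 0.834, 0.846 and 1.11 CPM in KMT2D KO and 3.27, 3.71 and 3.64 CPM in KMT2D WT. It was lower in every KMT2D KO library (-1.94, SE 0.22, adjusted p = 1.6e-06). Slc6a2, the noradrenaline transporter gene (chromosome 8, 95484946 to 95525566), had 1.95, 1.84 and 2.84 CPM in KMT2D KO, against 0.239, 0.258 and 0.246 CPM in KMT2D WT. It was higher in all KMT2D KO libraries (3.14, SE 0.34, adjusted p = 9.9e-07).

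The serotonin transporter gene Slc6a4 had 0.0844 ± 0.095 CPM in KMT2D KO and 1.74 ± 0.299 CPM in KMT2D WT (-4.48, adjusted p = 1.6e-05). The neuronal glycine transporter gene Slc6a5 had 0.104 ± 0.061 CPM in KMT2D KO and 0.494 ± 0.286 CPM in KMT2D WT (-2.20, adjusted p = 0.0065), and its call was lost without KMT2D KO replicate 2 (-1.85, adjusted p = 0.053) or KMT2D WT replicate 1 (-1.62, adjusted p = 0.058), range over the alternatives 0.0020 to 0.068. Slc6a20b, a proline carrier gene with a near copy beside it (Slc6a20a), had 0.182, 0.179 and 0.658 CPM in KMT2D KO and 0.564, 0.0646 and 0 CPM in KMT2D WT. A single library of each group stood above the others, and its value of 0.61 was not called (adjusted p = 0.56). It was 3.12 and called without KMT2D WT replicate 1 (adjusted p = 0.022, range over the alternatives 0.022 to 1) and -0.23 without KMT2D KO replicate 3.

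Lists of genes that act beside the carriers were read in the same fit. In the response to amino acid shortage run by the kinase GCN2 and the factor ATF4, 7 of 14 genes were called higher and 7 lower, where 71.0% of all tested genes were called, and the median was -0.06. Eif2ak4, which encodes GCN2, had 88.9 ± 3.54 CPM in KMT2D KO and 25.7 ± 1.27 CPM in KMT2D WT (1.79, adjusted p = 2.6e-12), and the transcription factor gene Cebpb had 196 ± 14.0 CPM in KMT2D KO and 46.0 ± 10.5 CPM in KMT2D WT (2.09, adjusted p = 5.6e-10). Atf5, an ATF4 target, had 91.5 ± 4.12 CPM in KMT2D KO and 235 ± 15.1 CPM in KMT2D WT (-1.36, adjusted p = 3.7e-11), and Trib3 had 4.71 ± 0.082 CPM in KMT2D KO and 12.7 ± 1.69 CPM in KMT2D WT (-1.43, adjusted p = 8.2e-08).

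In a list of 29 genes for amino acid sensing at the lysosome and mTORC1, 13 were called higher and 6 lower. A further 10 missed the threshold, and the median was 0.13. The list also holds Rheb and the mTORC1 genes Mtor, Rptor and Mlst8, and its count and median give no direction of sensing. The share called was 65.5%, against 71.0% of all tested genes. Rragb, a Rag GTPase gene, had 4.87 ± 0.247 CPM in KMT2D KO and 1.51 ± 0.121 CPM in KMT2D WT (1.68, adjusted p = 5.4e-07), and the sestrin gene Sesn1 had 20.7 ± 1.21 CPM in KMT2D KO and 11.1 ± 0.797 CPM in KMT2D WT (0.90, adjusted p = 5.6e-07). Seh1l, a GATOR2 subunit gene, had 50.7 ± 1.19 CPM in KMT2D KO and 81.9 ± 2.75 CPM in KMT2D WT (-0.69, adjusted p = 4.3e-08), and the mTORC1 subunit gene Mlst8 had 12.01 ± 0.897 CPM in KMT2D KO and 17.9 ± 1.88 CPM in KMT2D WT (-0.57, adjusted p = 0.00015). Scaled by library size alone, which shifts the median of all genes by -0.11, 11 genes of this list were called lower.

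Of 11 other carriers of amino acids and their derivatives, 3 were called higher, 3 lower, 2 were not called and 3 were not tested, with a median of 0.048. The share called was 75.0% of those tested, against 71.0% of all tested genes. The lysosomal cystine exporter gene Ctns had 18.01 ± 0.224 CPM in KMT2D KO and 11.1 ± 0.888 CPM in KMT2D WT (0.70, adjusted p = 8.2e-06), and Mfsd12, needed for lysosomal cysteine import, had 8.58 ± 0.872 CPM in KMT2D KO and 3.90 ± 0.725 CPM in KMT2D WT (1.13, adjusted p = 1.1e-05). Slc16a10, which carries aromatic amino acids, had 0.768 ± 0.180 CPM in KMT2D KO and 2.09 ± 0.531 CPM in KMT2D WT (-1.45, adjusted p = 0.00069), and the lysosomal histidine and peptide carrier gene Slc15a3 had 7.57 ± 0.282 CPM in KMT2D KO and 15.4 ± 2.47 CPM in KMT2D WT (-1.02, adjusted p = 2.5e-06). In the list of heavy chains and accessory proteins, 2 of 5 genes were tested and both were called higher, as were 35.4% of all tested genes. Besides Slc3a2 the list gave Arl6ip5, whose product binds the glutamate carrier EAAC1, at 214 ± 10.2 CPM in KMT2D KO and 114 ± 5.16 CPM in KMT2D WT (0.90, adjusted p = 2.0e-09).

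Of 7 genes of the MYC network, whose factors bind the E-box, 3 were called higher, 1 lower, 2 were not called and 1 was not tested, and the median was 0.53. Of the tested ones 66.7% were called, against 71.0% of all tested genes. Mycl had 1.24 ± 0.109 CPM in KMT2D KO and 0.388 ± 0.246 CPM in KMT2D WT (1.65, adjusted p = 0.0036), and the antagonist gene Mxd1 had 57.8 ± 3.24 CPM in KMT2D KO and 22.4 ± 0.686 CPM in KMT2D WT (1.37, adjusted p = 1.4e-10). Max, the shared partner gene, had 73.8 ± 1.24 CPM in KMT2D KO and 84.3 ± 6.75 CPM in KMT2D WT (-0.19, adjusted p = 0.015), and missed the threshold without KMT2D KO replicate 1 (adjusted p = 0.064), 2 (0.051) or 3 (0.071). Without KMT2D WT replicate 3, 5 genes of this list were called higher. Myc itself had 81.2 ± 0.624 CPM in KMT2D KO and 77.2 ± 9.55 CPM in KMT2D WT and was not called (0.07, adjusted p = 0.39).

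**Figure D5:**
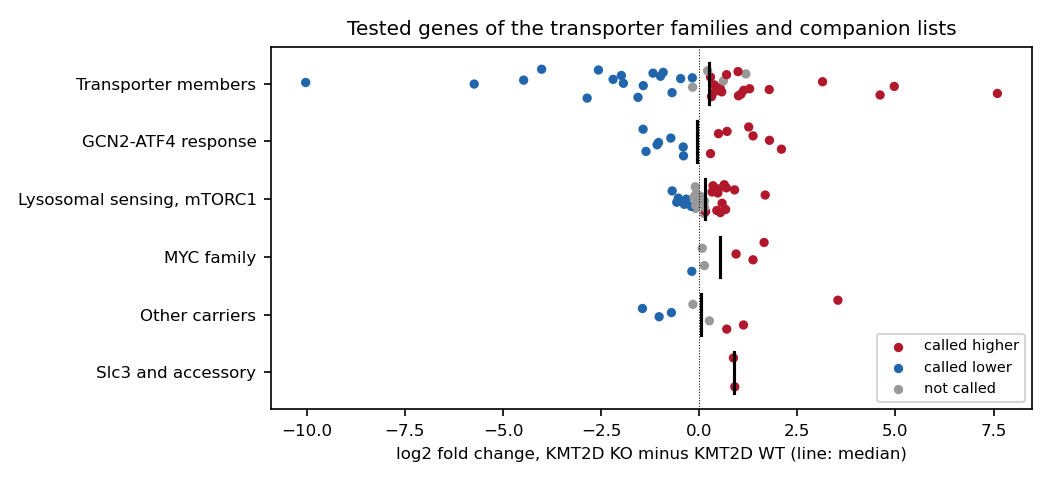
Log2 fold change (KMT2D KO minus KMT2D WT, x axis) of every tested gene of the transporter families and of the 5 companion lists, coloured by call, with the median as a line. Medians are 0.25 for the transporters, -0.06 for the GCN2-ATF4 list and 0.13 for the lysosomal list. Slc6a12 is drawn at its bound and Slc6a17 at the ratio of its counts.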

How the data were processed

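RNA sequencing was analysed in 6 libraries, 3 of KMT2D KO and 3 of KMT2D WT cells, grouped by their titles. The deposited values were raw counts of fragments per gene, which the authors made with featureCounts 1.5.2 on mm9 exons, per the file headers, with no strand option set. The submitters' processing notes list STAR, HTSeq and mm9, with no roles. The exon length in bases was deposited beside the counts and was used for RPKM.

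Counts were tested with edgeR 4.0.16 in R 4.3.3 (TMM scaling, default low-count filter, group as the only term). CPM and RPKM used TMM-scaled library sizes, with factors of 0.957 to 0.967 in KMT2D KO and 1.036 to 1.044 in KMT2D WT. Standard errors (SE) were derived as the absolute log2 fold change over the root of the F statistic. The biological coefficient of variation was 7.94%. The fit was tested on simulated data in which few genes changed, with directions drawn at random. In the data at hand 71.0% of tested genes were called, a setting that the simulation does not cover.

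Values by library are given for up to 3 called risers and 3 called fallers per family with at least 2 CPM in the higher group, and for members with at least 100 CPM. Companion lists are named by up to 2 called genes in each direction with at least 1 CPM. Other genes named, such as Slc7a5, Slc6a20b, Slc6a19 and Myc, were chosen after their values were seen. Members, lists and rules were chosen with earlier results of these data known. Alternatives were RLE factors, library size only, DESeq2 1.42.0, limma 3.58.1 voom, other filters, glmTreat, the replicate block, a member set without matches that carry no amino acids, chromosome medians subtracted, RPKM against CPM shares, and leaving out each library. Protein sequences were not used here. Some alleles and single members are not reported here. Libraries of a group differed by more than sampling noise (chi-square 11.4 to 25.6 per degree of freedom).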

Additional observations from a re-analysis of the deposited data

How the results depend on the processing

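The counts of 17 members higher and 17 lower became 7 and 8 with glmTreat against an absolute log2 fold change of 1, which called 2823 of all genes, against 10345 in the test used. A filter at a mean of 1 CPM left 11 members lower, since it tests fewer genes. The other alternatives stayed within 1.5 times. The replicate numbers did not pair the libraries (correlations of deviations 0.0085 to 0.015), and the replicate block gave 18 members higher, 17 lower and 10368 genes in all, with Slc7a6os as a further call (adjusted p = 0.046). The median of 0.25 was 0.14 by library size only, -0.46 with DESeq2 and -0.42 without a filter (both test more of the scarce members), 0.33 at a mean of 1 CPM, and 0.13 with chromosome medians subtracted. Leaving out 1 library gave medians of -0.15 to 0.27, and 0.065 to 0.27 over the same 38 members (0.10 without KMT2D WT replicate 3). The sign of Slc6a20b turned without KMT2D KO replicate 3 (-0.23), and it was called without KMT2D WT replicate 1 (3.12). With chromosome medians subtracted, 17 of the 38 tested members moved by more than the spread of their libraries, and no called member changed sign. Slc7a6 was then at 0.78, Slc7a2 at 0.48, Slc7a5 at -1.13 and Slc7a1 at -0.63. Slc43a3 was at 0.11, Slc36a4 at -0.39 and Slc6a6 at -0.89. Slc38a9, not called, was at 0.37 against -0.17. Kmt2d was at -0.27 and not called with glmTreat (adjusted p = 1), and at -0.34 to -0.17 when 1 library was left out. Of single members, 19 called ones were no longer called with glmTreat, which tests a size. The share of Slc38a2 in summed CPM was 24.2% in KMT2D KO and 13.8% in KMT2D WT. Causes not named were not tested. Depth limits the 23 members that were not tested, none above 0.182 CPM.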
